A study of Drosophila melanogaster with 12 samples.

Results

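ninaD and santa-maria encode class B scavenger receptors, and both take part in the uptake of carotenoids in the fly. They were chosen by name, not by their values, and are 2 of the 4209 annotated genes in the chromosome regions where genes could be named. Their reads were the poly(A)-tailed transcript ends on the gene's own strand, from the gene start to 1000 nt past its end or to the next gene on that strand. That gave 121 reads for ninaD and 10317 reads for santa-maria over 12 libraries.

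The libraries were made by 3'READS and 3'READS+, which read the 3' ends of polyadenylated RNA, so that a read marks the place of cleavage. Mutant flies came from the RpII215 strain and carry the C4 allele of the gene for the largest subunit of RNA polymerase II. Wild-type flies were w1118. Heads and bodies were dissected from adults, and the labels give neither sex nor exact age. There were 2 mutant head, 4 wild-type head, 2 mutant body and 4 wild-type body libraries. The labels do not give the zygosity of the allele, and the strains may differ at other loci, so that allele and strain background cannot be told apart. Nothing says that replicates came from separate animals, and the spread behind each p-value may thus be technical.

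Most animals cannot make carotenoids and take them from food. In the fly, ninaD acts in the midgut, where it is needed for carotenoid uptake from the diet, and santa-maria acts in the head outside the photoreceptors, in neurons and glia, where it is needed for the uptake of carotenoids that the oxygenase ninaB cleaves to the visual chromophore. Loss of either gene leaves photoreceptors short of rhodopsin. Class B receptors, related to mammalian CD36 and SR-BI, take up lipids and lipoproteins. Carotenoid, lipid and sterol traffic share several carriers.

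ninaD (FBgn0002939) lies on the plus strand of chromosome arm 2L at 18081628 to 18083608. Its isoform RA has 5 exons and a 3'UTR of 148 nt, and isoform RB has 3 exons, a 3'UTR of 57 nt and an end at 18083096. The arrestin gene Arr1 ends 320 nt upstream on the same strand, and CG31741, another class B receptor gene, starts after a gap of 647 nt, which closes the window at 18084255. santa-maria (FBgn0025697) lies on the minus strand of 2L at 7445355 to 7451244. Its isoform RA has 5 exons, isoform RC has 4 exons and a 5'UTR of 3597 nt, and both share a 3'UTR of 274 nt. CG5973 on the opposite strand overlaps its 3' end by 528 nt, and reads were separated by strand.

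Depth ranged between 2219693 and 9062730 reads per library. The sample numbers fall into 2 far-apart ranges, here called block 1 (replicates 1 and 2 of wild type) and block 2 (the mutant and replicates 3 and 4 of wild type). The wild-type replicate 2 libraries of both tissues were the shallowest and stood apart. For genes with at least 20 reads at their pair of most used positions, their order of use matched the pooled order in 71.0% (heads) and 69.9% (bodies), against 83.7% to 93.5% in the other 10 libraries. Within block 2, mutant body replicate 1 stood apart, with 4.50% mitochondrial reads against 18.3% to 26.0% in the other libraries. Gene counts of the 2 mutant bodies differed by a chi-square of 121 per gene, against 38.2 for wild-type body replicates 3 and 4. The mutant body results below rest on this library and 1 other. Photoreceptor markers (5 of 11 listed genes lie in the named regions, none at 0 in any group) summed to 36234 to 39910 CPM in mutant heads, 35334 to 126246 in wild-type heads, 216 to 678 in mutant bodies, 164 to 165 in wild-type bodies of block 2 and 4702 to 7346 in wild-type bodies of block 1. CPM are counts of reads scaled to the total over named genes, after TMM normalization. The part of these markers in the block 1 results below was not tested. In these bulk tissues, fewer cells of a type and less RNA per cell cannot be told apart.

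The level of each gene by tissue and genotype was described first. In block 2 santa-maria was a head transcript of high level. ninaD was low, with 1 to 15 reads in every library but wild-type body replicates 3 and 4. santa-maria had 1593 and 1500 CPM in mutant heads (1949 and 2090 reads). In wild-type heads it had 202, 17.5, 2225 and 2134 CPM in replicates 1 to 4 (112, 6, 2860 and 2188 reads). All block 2 heads of both genotypes were high, and the block 1 heads were far lower. It had 156 and 176 CPM in mutant bodies (144 and 220 reads). In wild-type bodies it had 49.4, 34.3, 397 and 220 CPM (51, 11, 433 and 253 reads). In block 2 every head library was above every body library. In wild-type replicate 2 the head value (17.5 CPM) was below the body value (34.3 CPM), on 6 and 11 reads.

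ninaD had 4 and 4 reads in mutant heads (3.27 and 2.87 CPM) and 1, 3, 15 and 5 reads in wild-type heads (1.80, 8.75, 11.7 and 4.88 CPM). In mutant bodies it had 2 and 10 reads (2.16 and 8.01 CPM), and in wild-type bodies 4, 3, 43 and 27 reads (3.87, 9.36, 39.4 and 23.5 CPM). The highest values were the wild-type bodies of block 2, and all other libraries held at most 15 reads. The counting error is large here: 4 reads have an exact Poisson interval of 1.09 to 10.2 reads. Each read is 1 transcript end, so CPM do not scale with transcript length. In block 2 the mean CPM of santa-maria was 263 times that of ninaD in wild-type heads and 9.81 times in wild-type bodies.

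**Figure D1:**
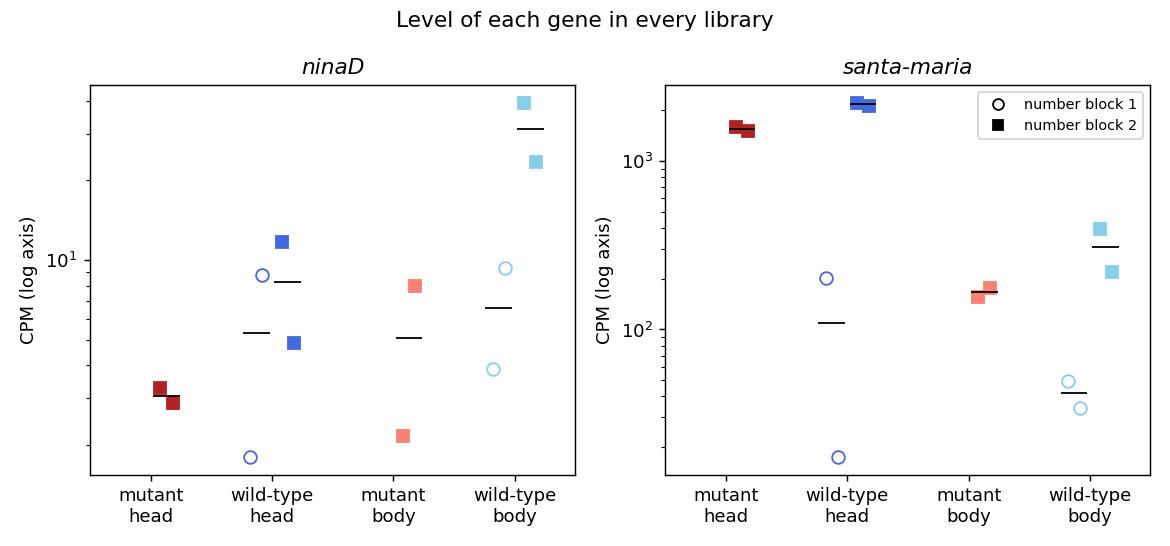
CPM of ninaD (left) and santa-maria (right) in each library on a log axis, by group, with open circles for block 1, filled squares for block 2 and black lines for the mean of each block. santa-maria reached 1500 to 2225 CPM in block 2 heads but 17.5 and 202 CPM in block 1 heads, and ninaD was highest in block 2 wild-type bodies at 23.5 and 39.4 CPM.

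The tissue comparison in wild type asked where each receptor is expressed. santa-maria was higher in wild-type heads than in wild-type bodies by 2.13 on the log2 scale (SE 0.69, edgeR quasi-likelihood test, Benjamini-Hochberg adjusted p = 0.0315, 4 libraries each, block as a term). Of the 2379 genes tested 47.9% were called in this comparison, 17.4% as higher and 30.4% as lower in heads, so a call is common. ninaD averaged 6.77 ± 4.33 CPM in wild-type heads and 19.0 ± 15.9 CPM in wild-type bodies (SD, n = 4 each), a log2 fold change of −1.29 (SE 0.65, edgeR adjusted p = 0.132). The libraries of both genes overlapped between tissues, and an exact two-sided permutation test on log2(CPM + 1) gave p = 0.4 for santa-maria and 0.257 for ninaD.

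These values depended on the block. Within block 2 alone, santa-maria was 2.97 higher in wild-type heads than in wild-type bodies (log2, edgeR adjusted p = 0.00207) and ninaD −1.69 (edgeR adjusted p = 0.0448). Within block 1 alone santa-maria was 1.34 higher (edgeR adjusted p = 0.472), and ninaD had too few reads to be tested. Without the replicate 2 libraries the log2 fold changes were 2.67 for santa-maria (edgeR adjusted p = 5.6e-04) and −1.59 for ninaD (edgeR adjusted p = 0.0275). That exclusion was not planned, so its p-values are no independent support. The santa-maria call was lost without wild-type head replicate 1, 3 or 4 or wild-type body replicate 3 or 4 (edgeR adjusted p between 0.0518 and 0.138). The ninaD difference was called without wild-type head replicate 2 (−1.63, edgeR adjusted p = 0.0360). Over the 19 alternative settings of this comparison 517 to 1561 genes were called, so a call was common in these fits too. As a ratio of mean CPM, block 2 was 19.9 times block 1 in wild-type heads and 7.37 times in wild-type bodies for santa-maria, and 1.57 times and 4.75 times for ninaD.

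The same tissue comparison in the mutant used libraries of block 2 only. santa-maria was 3.47 higher (log2, SE 0.44) in mutant heads than in mutant bodies (edgeR adjusted p = 5.7e-04, 2 libraries each), and 56% of the 2761 genes tested were called, 21.2% as higher and 34.8% as lower in heads. The call held when each of the 4 libraries was left out, with log2 values of 3.28 to 3.54. ninaD differed by −0.51 (SE 0.86, edgeR adjusted p = 0.619), with a 95% interval of −2.49 to 1.47 that spans differences in either direction. Its 4 libraries overlapped between mutant heads and mutant bodies, and without mutant body replicate 2 the value turned to 0.45.

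The genotype comparison asked whether the mutant polymerase strain differs in the level of either transcript. Neither gene passed the test in either tissue. Mean CPM of both genes in block 2 was lower in the mutant in heads and in bodies, in values that come from the same libraries. In heads, santa-maria averaged 1547 ± 65.6 CPM in mutant and 2179 ± 64.2 CPM in wild-type libraries of block 2 (SD, n = 2 each). The log2 fold change was −0.44 with a 95% interval of −1.36 to 0.49 (edgeR adjusted p = 0.824). For ninaD it was −1.40 (SE 0.80, edgeR adjusted p = 0.626), and −1.93 to −0.50 with 1 library left out. Of the genes tested in heads 1.16% were called, 0.652% as higher and 0.507% as lower in the mutant. With the 2 head groups fitted alone, santa-maria was called at −0.48 (edgeR adjusted p = 0.0245), and 372 of 2042 genes were called in that fit.

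In bodies, ninaD had 12 reads in 2 mutant libraries and 70 reads in 2 wild-type libraries of block 2. Its log2 fold change was −2.58 (SE 0.68, edgeR adjusted p = 0.0935), with 2.68% of genes called, 1.41% as higher and 1.27% as lower in the mutant. DESeq2 called it (−2.52, adjusted p = 0.0406), and so did edgeR without mutant body replicate 2 (−3.76, adjusted p = 0.0216, with 888 genes called). santa-maria averaged 166 ± 14.4 CPM in mutant bodies and 308 ± 125 CPM in wild-type bodies of block 2 (SD, n = 2 each). Its log2 fold change was −0.93 with a 95% interval of −1.87 to 0.01 (edgeR adjusted p = 0.285), and without wild-type body replicate 3 it was −0.38. An exact permutation test of 2 against 2 libraries cannot give a p below 0.333.

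Markers of other tissues were read beside ninaD in bodies. Lsp1beta, a larval serum protein gene of the fat body, had 157 and 175 CPM in mutant bodies, against 79.4, 299, 15032 and 673 CPM in wild-type bodies. The 2 fat body markers with reads summed to 196 to 280 CPM in mutant bodies and 895 to 15210 CPM in wild-type bodies of block 2, and 0 of 2 were called by edgeR in that comparison (2 had an unadjusted p under 0.05, and DESeq2 called 1). The 5 gut markers summed to 2786 to 4191 CPM in mutant bodies and 3586 to 3920 CPM in wild-type bodies of block 2, and 1 of 5, the maltase gene Mal-B1, was called, as lower. The 3 muscle markers summed to 813 to 958 CPM in mutant bodies and 2182 to 3649 CPM in wild-type bodies of block 2. Of these 1 of 3, the myosin heavy chain gene Mhc, was called as lower (−3.16, edgeR adjusted p = 0.0385), and DESeq2 called 2 of 3. By edgeR 1.27% of all 2761 genes tested were called as lower and 1.41% as higher in mutant bodies, and 483 had an unadjusted p under 0.05. DESeq2 called more genes in this comparison than edgeR did. Other marker lists did not all fall. Their median log2 fold change was 0.48 for photoreceptor (0 of 5 called by edgeR) and 0.03 for male reproductive markers (1 of 7, as lower). It was −0.53 for neuron (0 of 5), −0.94 for glia (0 of 2) and −0.79 for haemocyte markers (0 of 4). The part of any of these markers in the ninaD values was not tested.

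**Figure D2:**
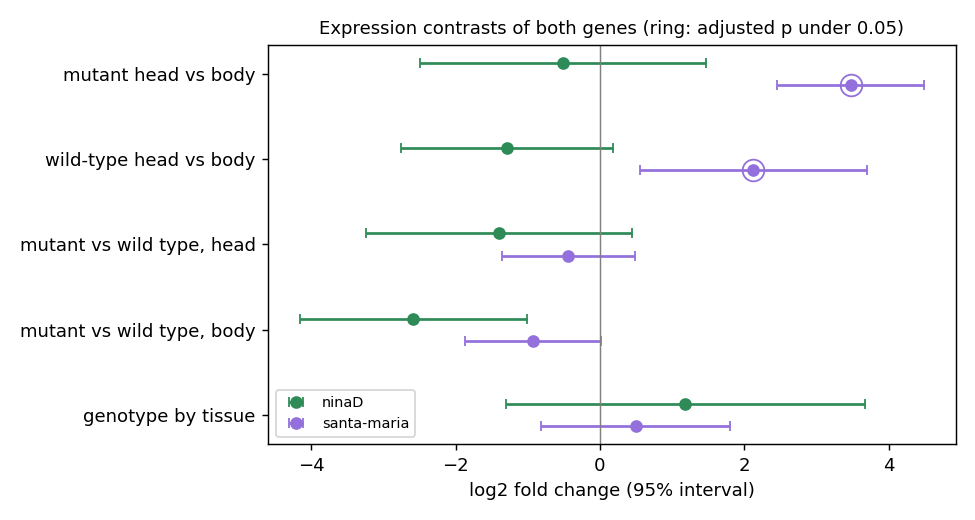
log2 fold change of ninaD (green) and santa-maria (purple) with its 95% interval in each of the 5 comparisons, from edgeR's quasi-likelihood fit. Rings mark an adjusted p under 0.05, which santa-maria reached for heads against bodies in both genotypes (3.47 in mutant and 2.13 in wild type) and ninaD in no comparison.

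Whether the genotype difference itself changed between heads and bodies was tested as an interaction. It was 1.18 for ninaD (log2, SE 1.08, edgeR adjusted p = 0.894) and 0.49 for santa-maria (SE 0.57, adjusted p = 0.911). Over all 2761 genes 0 were called by edgeR, 177 had an unadjusted p under 0.05, and DESeq2 called 16. The 95% intervals, −1.30 to 3.67 for ninaD and −0.82 to 1.81 for santa-maria, leave room for differences in either direction. Without wild-type body replicate 3 the santa-maria value turned to −0.12, and without mutant body replicate 2 edgeR called 302 genes.

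The ends of santa-maria transcripts were described next. Nearly all lay at the annotated end. The cluster between 47 nt before and 9 nt past that end (2L:7445346-7445402) held 98.8% of the 10317 pooled reads. A cluster 141 to 203 nt past the end held 46 reads (0.446%).
Because the minor site held under 5% of reads, santa-maria could not enter the test of 3'UTR site choice, and ninaD had too few reads, so 0 of 2 genes were tested there.

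Within that main cluster the mutant strain had a higher share of reads at a downstream cleavage position than wild type, in heads and in bodies. The 2 most used positions lay 3 nt and 8 nt past the annotated end, at 7445352 and 7445347 on 2L, and held 8808 and 1126 pooled reads. Of the reads at both positions, the position at 8 nt took 23.2% (439 of 1895) and 23.8% (482 of 2022) in mutant heads. It took 2.20% (2 of 91), 1.91% (53 of 2772) and 2.30% (49 of 2133) in wild-type head replicates 1, 3 and 4. Replicate 2 had no read at either position.

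In mutant bodies the position at 8 nt took 33.1% (41 of 124) and 20.4% (41 of 201). In wild-type body replicates 1, 3 and 4 it took 9.30% (4 of 43), 2.19% (9 of 411) and 2.48% (6 of 242), and replicate 2 again had no read at either. The 4 mutant libraries spanned 20.4% to 33.1% and the 6 wild-type libraries with reads 1.91% to 9.30%. The share of other genes whose positions separate the genotypes in this way was not counted. The shallowest wild-type value, 9.30%, has an exact Clopper-Pearson 95% interval of 2.59% to 22.1%, which reaches into the mutant range. Such intervals cover counting error only, since PCR copies are not independent molecules.

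**Figure D3:**
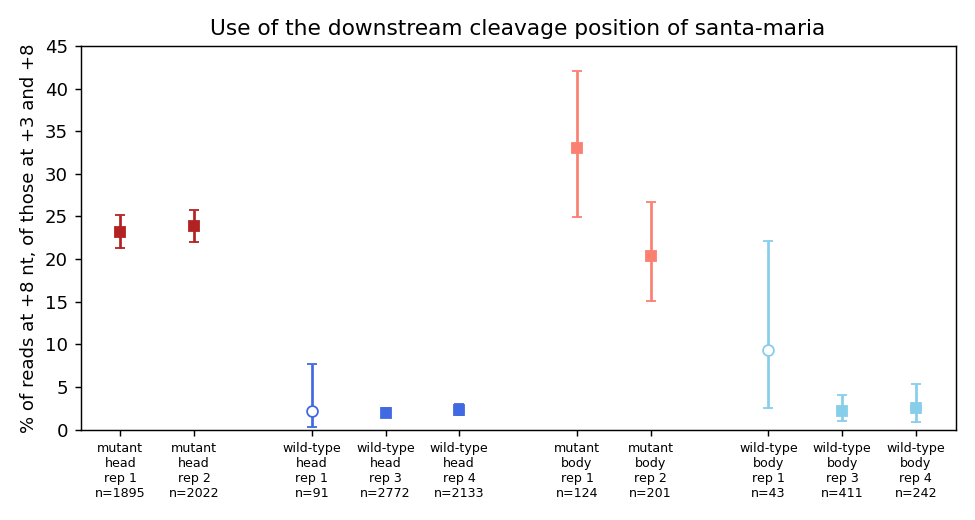
Percent of santa-maria reads at 8 nt past the annotated end, among reads at 3 nt and 8 nt past it, in each library with reads there, with exact Clopper-Pearson 95% intervals (open circles, block 1, and n, reads at both positions). The mutant libraries sit at 20.4% to 33.1% and the wild-type libraries at 1.91% to 9.30%.

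The shift was tested on the reads at both positions in an edgeR model that gives each library its own term, fitted over the 2 most used positions of the top site of each of 1468 genes. This test was chosen after the santa-maria positions had been seen, so its p-values describe the shift and are no independent support. The 5% minimum share of the minor position was also met only through the mutant libraries, as wild type lay near 2%. The ratio of distal to proximal reads was higher in mutant heads than in wild-type heads of block 2 by 3.84 on the log2 scale (SE 0.35, edgeR adjusted p = 2.3e-04, 2 libraries each). In this comparison 3.95% of genes were called, 2.11% toward the distal and 1.84% toward the proximal position. In mutant bodies it was higher than in wild-type bodies by 3.88 (SE 0.42, edgeR adjusted p = 5.3e-04, 2 libraries each), where 5.04% of genes were called, 2.66% toward the distal and 2.38% toward the proximal position. With no minimum share, over 1941 genes, the values were 3.84 in heads (edgeR adjusted p = 1.3e-04, 59 genes called) and 3.88 in bodies (edgeR adjusted p = 4.6e-04, 77 genes called). The positions of santa-maria lay 5 nt apart, against a median of 6 nt over the genes tested. Of the 1468 genes, 46 in heads and 36 in bodies had a higher log2 value than santa-maria. Counting either direction, 92 genes in heads and 73 in bodies had a larger shift, so shifts of this size were not particular to santa-maria.

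The call held when each of the 4 libraries compared was left out, with log2 values of 3.71 to 3.98 in heads and 3.43 to 4.37 in bodies. The number of genes called moved more. In heads it was 34 and 36 when mutant replicate 1 or 2 was dropped, and 28 and 32 when wild-type replicate 3 or 4 was dropped. In bodies it was 146 and 492 when mutant replicate 1 or 2 was dropped, and 25 and 24 when wild-type replicate 3 or 4 was dropped. Tissue made no detectable difference to the shift. Mutant heads and mutant bodies differed by −0.20 (log2, 95% interval −1.0 to 0.59, edgeR adjusted p = 0.943), where 0.204% of genes were called, all 3 toward the distal position. That count was 0 without either mutant head library, 27 without mutant body replicate 1 and 328 without mutant body replicate 2. The interaction of genotype and tissue was −0.04 (SE 0.55, 95% interval −1.29 to 1.21, edgeR adjusted p = 1), an interval wide enough to hold a difference of more than 2-fold either way. The tissue difference turned to 0.26 without mutant body replicate 1, and the interaction turned positive without that library (0.42), wild-type head replicate 4 (0.096) or wild-type body replicate 3 (0.070), none of them called. Over all genes that interaction called 0 by edgeR and 0 by limma, with 39 at an unadjusted p under 0.05, and edgeR called 206 without mutant body replicate 2 and 3 without mutant body replicate 1. Wild-type heads and bodies entered a test only with no minimum share, and differed by −0.78 (SE 0.55, edgeR adjusted p = 1). The genome sequence of neither strain around this end was used here, so a difference at the site itself was not examined.

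Smaller positions in the cluster are given as shares of all santa-maria reads. The position 11 nt before the annotated end held 1.21% of reads in mutant heads (49 of 4039) and 0.574% in wild-type heads of block 2 (29 of 5048). In bodies it held 2.20% in mutant (8 of 364) and 0.729% in wild-type libraries of block 2 (5 of 686). These differences were not tested, and the body values rest on few reads.

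**Figure D4:**
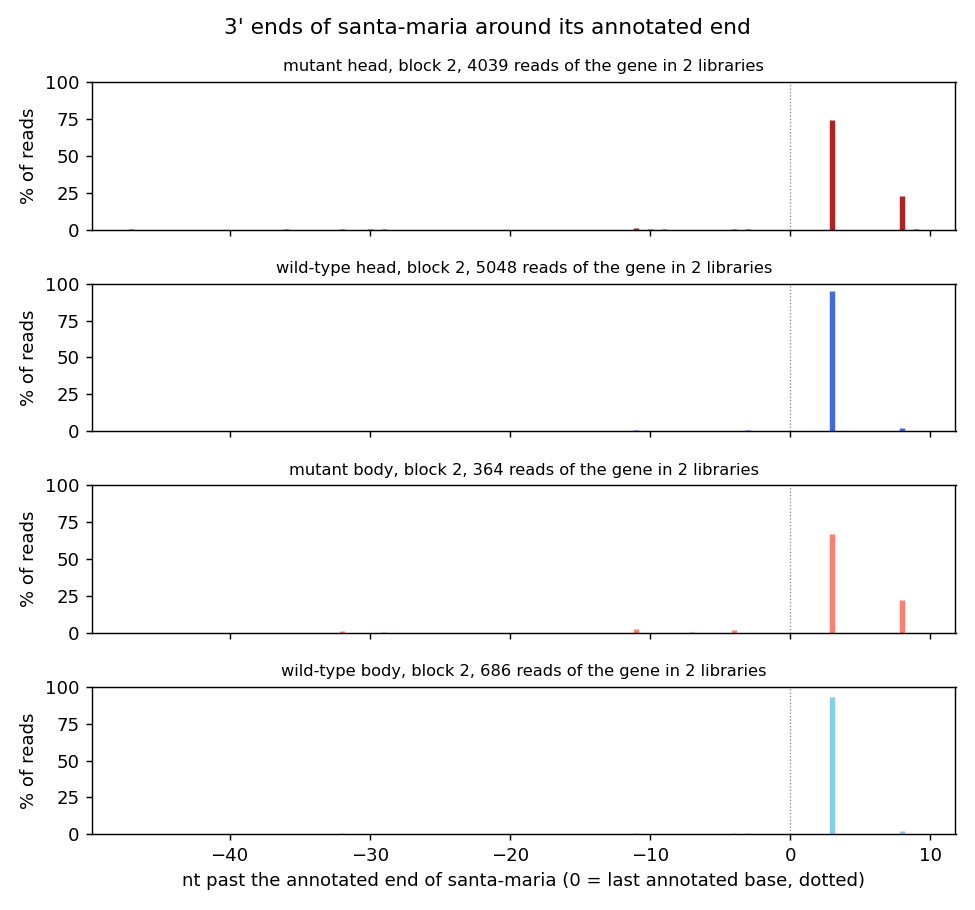
Percent of santa-maria reads ending at each position from 50 nt before to 15 nt past the annotated end (dotted line), summed over the 2 block 2 libraries of each group. The bar at 8 nt holds 22.8% of reads in mutant heads and 22.5% in mutant bodies, against 2.02% in wild-type heads and 2.19% in wild-type bodies.

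Ends far upstream were rare. The region that is 5'UTR of isoform RC and first intron of isoform RA held 66 pooled reads with the first exon (0.640%). It took 18 of 364 reads in mutant bodies (4.95%, 95% interval 2.96% to 7.70%) and 8 of 686 in wild-type bodies of block 2 (1.17%, 0.505% to 2.28%). By library it took 3.47% and 5.91% in mutant bodies, against 7.84% (4 of 51), 63.6% (7 of 11), 1.39% and 0.791% in wild-type bodies, so the genotypes overlapped once block 1 was counted. In heads it took 0.248% of reads in mutant and 0.218% in wild-type libraries of block 2. A single cluster, 5046 to 5063 nt before the annotated end, held 40 of the 66 reads. It held 16 of the 18 reads in mutant bodies and 3 of the 8 in wild-type bodies of block 2. Neither difference was tested.

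The ends of ninaD transcripts were spread over several places. The largest cluster lay 71 to 94 nt before the annotated end of isoform RA, within its 3'UTR, and held 62 of 121 reads, 54 of them at 1 position 78 nt before the end. The cluster at the annotated end itself (41 nt before to 1 nt past) held only 9 reads. A cluster 148 to 150 nt past the end held 21 reads, and the second intron, which both isoforms splice out, held 23 reads at 2 positions. The 3'UTR of isoform RB held 3 reads, and the remaining 3 were single reads elsewhere. Of the 62 reads in the largest cluster 39 came from wild-type body replicates 3 and 4, and not every library had most of its reads there. In mutant heads the cluster past the end held more reads than the largest one, and all 3 reads of wild-type body replicate 2 lay in the second intron.

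By group, the largest ninaD cluster took 2 of 8 reads in mutant heads, 11 of 24 in wild-type heads, 9 of 12 in mutant bodies and 40 of 77 in wild-type bodies. The cluster past the annotated end took 3 reads in mutant heads, 6 in wild-type heads, 0 in mutant bodies and 12 in wild-type bodies. With 12 reads of the gene in mutant bodies, a count of 0 allows a share of up to 26.5% (exact upper limit of the 95% interval). The second intron took 1 read in mutant heads, 5 in wild-type heads, 2 in mutant bodies and 15 in wild-type bodies. The clusters were not tested between groups. When pairs with a mean of 5 reads were allowed, the pair of most used 3'UTR sites of ninaD could be tested and passed in no comparison (edgeR adjusted p between 0.129 and 1 over 5 comparisons).

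**Figure D5:**
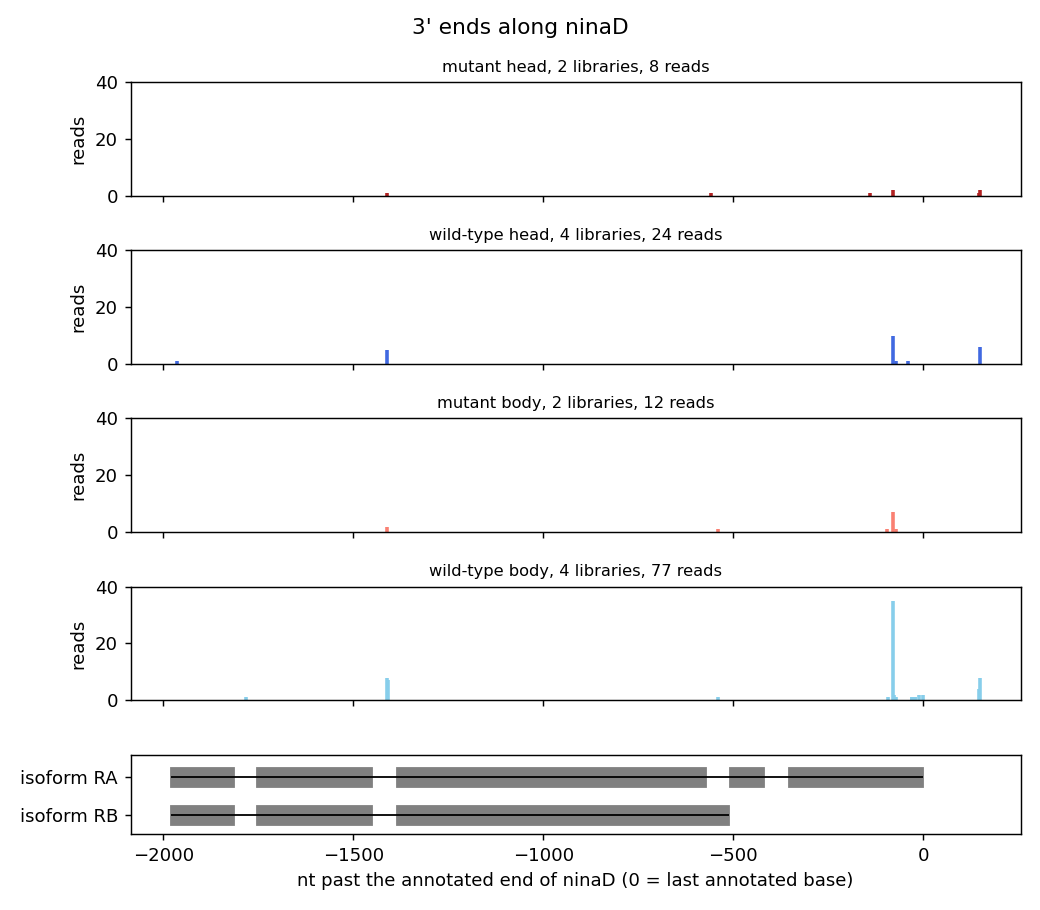
Reads ending at each position along ninaD, summed over all libraries of each group, with the exons of both isoforms as grey boxes below and distance from the annotated end on the horizontal axis. The tallest bar in wild-type bodies, 35 of 77 reads, lies 78 nt before the annotated end.

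Class B receptor genes were read as a list that includes the pair. Of 16 listed, 7 lie in the named regions and 6 passed the low-count filter. These 6 were ninaD, santa-maria, crq, pes, dsb and CG7227, so the counts and the median below partly restate the pair. In wild-type heads against wild-type bodies 2 of 6 were higher and 0 lower, against 17.4% higher and 30.4% lower of all genes tested. They were santa-maria and dsb (debris buster; 1.56, SE 0.40, edgeR adjusted p = 0.00960). The median log2 fold change of the 6 was 0.97, against 0.04 over all genes tested. In mutant heads against mutant bodies 4 of 6 were higher and 0 lower, against 21.2% higher and 34.8% lower of all genes tested. They were santa-maria, dsb (1.89), crq (croquemort, a haemocyte receptor for apoptotic cells; 1.41, edgeR adjusted p = 0.0116) and pes (peste, needed in fly cells for the uptake of mycobacteria; 1.36, edgeR adjusted p = 0.0162).

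Between genotypes edgeR called 0 of 6 class B receptors in heads and 0 of 6 in bodies, with 2 of 6 at an unadjusted p under 0.05 in each. Of all 2761 genes tested 1.16% were called in heads and 2.68% in bodies, and 300 and 483 had an unadjusted p under 0.05. With so few called, 0 of 6 says little about these receptors. DESeq2 called 0 in heads and 1, ninaD, in bodies. crq had 437 and 378 CPM in mutant heads, against 90.1, 81.7, 448 and 380 CPM in wild-type heads, where the block 1 libraries were the low ones. The receptors did not share this pattern: dsb had 36.0 and 52.4 CPM in mutant heads, against 130, 43.8, 12.4 and 10.7 CPM in wild-type heads, where block 1 was the high one. CG31741, the receptor gene next to ninaD, had 4 reads in all and was not tested.

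Of 8 listed genes of chromophore formation, ninaD and santa-maria were the only 2 in the named regions. Of 27 listed genes of lipid and sterol uptake and transport, 8 lie there and 7 were tested. Npc2a, which encodes a sterol-binding protein, was the 1 gene called in wild type, higher in heads than in bodies by 2.14 (edgeR adjusted p = 0.00315), where 47.9% of all genes were called. In the mutant 3 of 7 were higher in heads than in bodies, Npc2a (2.68), Apoltp (2.23) and Npc1a (1.02), where 21.2% of all genes were called higher and 34.8% lower. DESeq2 called 2 of these, Npc2a and Apoltp. Between genotypes edgeR called 0 of 7 in heads and 0 of 7 in bodies, with 0 and 2 at an unadjusted p under 0.05, and DESeq2 called 0 in heads and 1 in bodies. By edgeR 1.16% of all genes tested were called in heads and 2.68% in bodies, so a count of 0 is no result about these genes.

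The genes whose levels most resembled those of each receptor were found by Pearson's r of log2(CPM + 1) over the 12 libraries, where a gene's mean over libraries reached 10 CPM. For santa-maria they were Gr28b (r = 0.973), Reph (0.964), CG31638 (0.955), CG13894 (0.949) and CG34159 (0.948). For ninaD they were Lsp1beta (0.843), SmydA-3 (0.839), CG13962 (0.777), CG14990 (0.757) and Gpo3 (0.755). The libraries share tissue, block and depth, and the ninaD values rest on 1 to 43 reads. Some of the matched genes had few pooled reads as well, such as Gr28b (240) and SmydA-3 (300), while CG34159 (4366) and Lsp1beta (20504) had more. ninaD and santa-maria had an r of −0.07 with each other over the same 12 libraries.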

How the data were processed

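The files hold deposited counts of reads per poly(A) position, strand and chromosome, raw and not normalized by the authors. Reads were aligned with Bowtie2 to BDGP5, per the submitters' processing notes; the sources used here do not give read filters or each library's protocol. Gene models came from BDGP6, and coordinates were never converted. Genes were named only where strong positions (200 pooled reads or more) lay 10 nt or less from annotated ends without any change of coordinate, as did 61.3% of them on 2L up to 22500000 and 57.4% on 3L up to 5000000, against 0.254% on 2L after a shift of 5000 nt. Coordinates are those of the files. The named regions held 16.0% of all reads, of which 92.2% fell to 1 gene. Whether positions are counted from 0 or 1 is not stated, so each may be off by 1 nt. How reads shared between near-identical copies were treated is not given either.

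Positions within 24 nt were joined into sites. Expression was tested with edgeR 4.0.16 (R 4.3.3; TMM, filterByExpr, quasi-likelihood test, Benjamini-Hochberg adjustment over all genes tested, threshold 0.05). Pairs of sites or positions were tested with a mean of at least 20 reads and at least 5% at the minor one. Standard errors were the unshrunk coefficient divided by the square root of F. The wild-type tissue contrast used 8 libraries with the block as a term, and the others the 8 libraries of block 2 in 1 fit. DESeq2 1.42.0 and limma 3.58.1 (0.5 reads added) were alternatives. The scripts were tested on simulated data. The genes described and the lists were chosen with earlier results of these data known. Genes named for likeness were the 5 with the highest r, and genes named from lists were those called or of highest mean CPM.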

Additional observations from a re-analysis of the deposited data

Results flagged for a closer look

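In the distribution of santa-maria reads, 6 values lay far from the other 3 libraries of their group, and all 6 belonged to wild-type replicate 2. In head replicate 2 the main cluster held 16.7% of reads (1 of 6), the 5'UTR and first intron region 33.3% (2 of 6) and the cluster past the annotated end 50% (3 of 6). In body replicate 2 the main cluster held 18.2% (2 of 11), the 5'UTR and first intron region 63.6% (7 of 11) and the cluster past the annotated end 9.09% (1 of 11). Of 10 groups examined, chance alone would mark about 1 in 20, and the 6 values are not independent, since shares of 1 library sum to a whole. These 2 libraries were the shallowest, and the values rest on 6 and 11 reads.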

How the results depend on the processing

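For heads against bodies in wild type, ninaD was called with DESeq2 (−1.43), with a replicate block (−1.46) and in block 2 alone (−1.69). It was also called without replicate 2 of either tissue (−1.59), an exclusion that was not planned. santa-maria was not called without the block term (2.87) or in block 1 alone (1.34, 517 genes called). Leaving out 1 library gave −1.63 to −0.75 for ninaD and 1.69 to 2.85 for santa-maria. Genes called in heads between genotypes numbered 114 with DESeq2, 21 with all 12 libraries and the block, 372 with the 2 groups alone (santa-maria −0.48, called) and 4 to 8 with 1 library left out; in bodies they numbered 112 with no filter, 213 with DESeq2 (ninaD −2.52, called), 15 with the 2 groups alone and 7 to 888. The replicate block over all 12 libraries, which by construction sets mutant replicates 1 and 2 beside wild-type libraries of block 1, gave 679 and 768 calls and reversed ninaD in heads (0.018) and santa-maria in heads (3.57) and bodies (2.35), both then called (edgeR adjusted p = 0.00985 and 0.0358). Same-numbered heads and bodies deviated together with r of 0.652, 0.0575 and 0.0142 (wild-type 1 and 2, wild-type 3 and 4, mutant). Block 1 thus deviated together and block 2 hardly did. The main tests do not take the numbers as pairs, so any pairing in block 1 was ignored there. The replicate block in wild type, under which ninaD was called, does take them as pairs. Leaving out 1 library gave −3.76 to −2.07 for ninaD between genotypes in bodies, −1.02 to 0.45 for ninaD between mutant tissues, −1.93 to −0.50 for ninaD and −0.56 to −0.31 for santa-maria in heads, −1.24 to −0.38 for santa-maria in bodies, 0.66 to 2.31 for the ninaD interaction and −0.12 to 0.74 for the santa-maria interaction. Interaction calls were 16 with DESeq2 and 0 to 302 with 1 library left out. With a mean of 5 reads, 1 of 2 genes entered each site choice test. For the cleavage position of santa-maria, leaving out 1 library gave −0.69 to 0.26 between mutant tissues and −0.52 to 0.42 for the interaction, which limma put at 0.015. With no minimum share the wild-type tissues differed by −0.78, not called, where the 5% minimum had allowed no test. Unless stated, the cause was not tested. ninaD was filtered out, with no value, in block 1 alone, in both fits of 2 groups alone that include mutant heads and in 3 of 8 wild-type fits with 1 library left out.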
